A study of Mus musculus with 4 samples.

Results

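TRBV19 is the mouse gene segment that encodes the V beta 6 family of T-cell receptor beta chains. The receptors described here are the TRB contigs named TRBV19 that lie in called cells and carry the high-confidence, full-length and productive flags in all 4 libraries. This rule found 1179 of 13709 such TRB contigs, in 1173 cells, with 631 in NOD 1, 294 in NOD 2, 121 in Tet2KO NOD 1 and 133 in Tet2KO NOD 2, where the number is the set number of the label. Single-cell receptor sequencing was run on pancreatic islets of female NOD mice, a strain that develops autoimmune diabetes, and of Tet2KO NOD mice, whose germline Tet2 deletion was moved from B6 mice by over 14 generations of backcrossing. Tet2 is a DNA demethylating enzyme. Each library pooled the islets of 4 to 6 mice, and no further treatment separates the groups. The design text calls 10 to 13 weeks the age, while the extraction protocol counts the same weeks from an event written BTM and the labels mention marrow transplant donors, so whether the mice were transplanted was not settled here. A pool is the replicate, so n = 2 per genotype. Genotype tests compare pools, while tests of TRBV19 against other TRBV segments compare them within each library.

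A beta chain gene is assembled in the thymus by joining a V, a D and a J segment, with bases trimmed and added at the joins. The V segment fixes the CDR1 and CDR2 loops, which mostly touch the MHC molecule, while the CDR3 loop spans the joins and mostly touches the peptide. In NOD islets both CD4 and CD8 T cells take part in the attack on beta cells, and these tables do not separate the 2 types.

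The V part is shown because every TRBV19 receptor in the series shared it. All 1179 contigs carried 1 identical 270-base stretch from framework 1 to framework 3, which matched the GRCm38 reference exactly at chr6:41178763-41179032 on the plus strand, within the second exon of TRBV19 (chr6:41178746-41179048). The capitals mark CDR1 (FNHDT) and CDR2 (SITEND), and in the second line they mark the 16 germline bases that begin the CDR3 and end at the recombination signal, whose heptamer is cacagtg.
TRBV19 framework 1 to framework 3: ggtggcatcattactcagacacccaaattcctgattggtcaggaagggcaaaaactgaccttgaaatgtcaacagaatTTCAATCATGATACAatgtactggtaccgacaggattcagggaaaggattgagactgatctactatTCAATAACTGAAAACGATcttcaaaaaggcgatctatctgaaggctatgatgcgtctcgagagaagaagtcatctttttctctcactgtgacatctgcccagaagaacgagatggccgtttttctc
TRBV19 germline end: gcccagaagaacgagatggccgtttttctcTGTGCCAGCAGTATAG

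Of the 1173 cells, 69 held over 1 TRB and were left out as possible doublets, and 102 with a single TRB held no TRA. The other 1002 were paired cells, 530 of NOD 1, 254 of NOD 2, 107 of Tet2KO NOD 1 and 111 of Tet2KO NOD 2. They formed 286, 174, 67 and 91 clonotypes, 618 in all, and values below follow this order of libraries. A clonotype is an identical V, J and CDR3 nucleotide sequence of both chains. The libraries held 6835, 2889, 1957 and 1664 called cells, so NOD 1 was the largest. The members rested on between 1089 and 7279 UMIs (unique molecular identifiers) per library. Between 27 and 64 called cells per library had a barcode that was also called in another library, among them 4 TRBV19 paired cells of NOD 1, 2 of NOD 2 and none of either Tet2KO NOD library.

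By clonotypes TRBV19 was among the most used TRBV segments in every library, and it took a larger share of cells in both NOD pools than in either Tet2KO NOD pool. It made up 9.53% and 10.3% of paired cells in the NOD pools, and 6.67% and 7.97% in the Tet2KO NOD pools. The groups did not overlap, with means of 9.89% ± 0.521 and 7.32% ± 0.922 (SD, n = 2), yet the exact two-sided permutation test gave p = 0.333, the smallest that 6 assignments allow. Among the 15 TRBV segments with at least 20 clonotypes in each library, 26.7% had cell shares that did not overlap between genotypes. Counted once per clonotype, the shares were 7.96%, 10.3%, 7.45% and 9.16% in the same order, and the genotypes overlapped. TRBV19 ranked 4, 3, 4 and 3 of 22 segments by clonotypes, and 3, 1, 7 and 5 by cells. Its log2 fold change by clonotypes, Tet2KO NOD over NOD, was -0.08 with a standard error of 0.14 (edgeR quasi-likelihood test, adjusted p = 0.992), in a table where 0.806% of 124 segments passed. The sign turned to 0.07 without NOD 2 and to 0.05 without Tet2KO NOD 1.

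**Figure D1:**
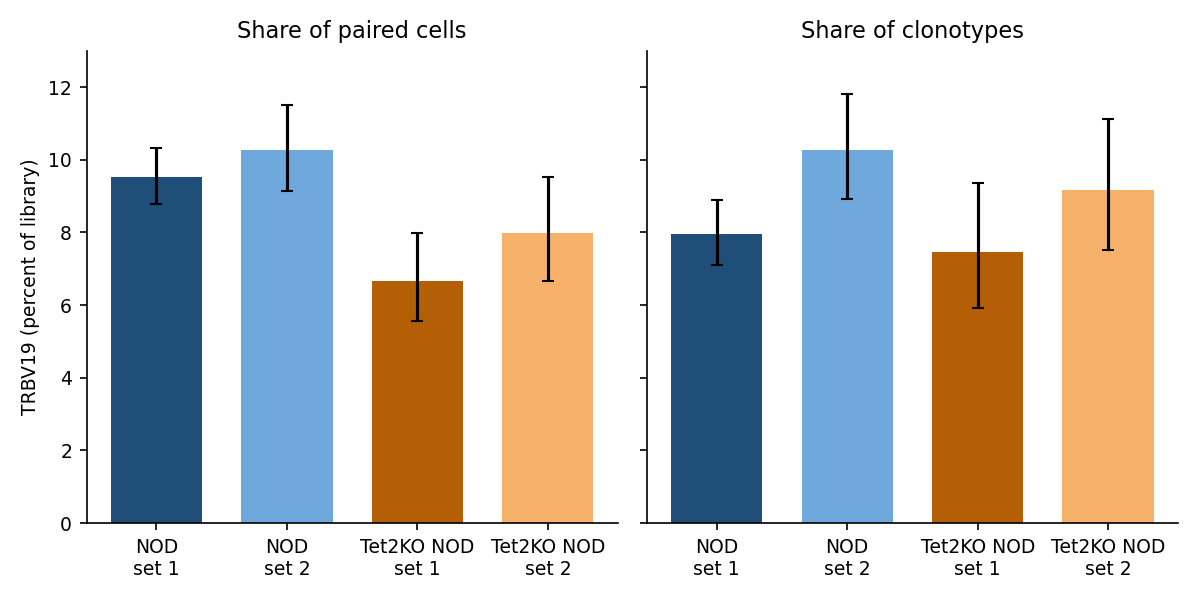
TRBV19 as a percent of paired cells (left) and of clonotypes (right) in each library; bars are library values and lines are Wilson 95% intervals, which cover counting error only. The cell shares run from 6.67% to 10.3%, with both Tet2KO NOD pools below both NOD pools, while the clonotype shares overlap between genotypes.

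TRBV19 was joined to all 12 TRBJ segments found, and its J partners were close to those of other TRBV segments. TRBJ2-7, the commonest J segment of the repertoire, took 19.6%, 22.4%, 13.4% and 24.2% of TRBV19 clonotypes, with a mean of 19.9% ± 4.71 (SD, n = 4) beside 20.6% ± 1.34 for other TRBV segments. TRBJ2-3 followed at 13.4%, TRBJ2-5 at 11.3%, TRBJ2-1 at 10.5%, TRBJ1-1 at 9.36%, TRBJ1-4 at 8.06%, TRBJ2-4 at 7.43%, TRBJ2-2 at 5.74%, TRBJ1-3 at 5.15%, TRBJ1-6 at 4.47%, TRBJ1-5 at 2.45% and TRBJ1-2 at 2.26% (means of 4 libraries). The whole TRBJ2 cluster held 412 of 618 clonotypes, and its mean share of 68.2% differed from that of other TRBV segments by 0.758 percentage points (above in 2 of 4 libraries, exact sign-flip permutation test, p = 0.75).

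The J segment farthest below its level elsewhere was TRBJ1-2, used by 12, 2, 1 and 2 TRBV19 clonotypes. Its shares of 4.20%, 1.15%, 1.49% and 2.20% were each below those of other TRBV segments in the same library, which lay between 5.23% and 5.76%. The log2 fold change was -0.99 (standard error 0.36, edgeR, adjusted p = 0.171). TRBJ1-6 lay above, with a mean of 4.47% beside 2.84% and a log2 fold change of 0.89 (standard error 0.38, adjusted p = 0.212). No TRBJ passed, and over all 114 partner segments of both chains 1.75% passed. Of the 10 TRBV19-TRBJ pairs with enough clonotypes to test between genotypes none passed (edgeR; none had an unadjusted p under 0.05 either), where 0.714% of 140 pairs passed, and those with TRBJ1-2 and TRBJ1-5 were too few to enter. The largest of these differences was that of TRBJ1-6, with 20, 8, 2 and 3 clonotypes and a log2 fold change of -0.98 (standard error 0.61, adjusted p = 0.914). The TRBV segments with the nearest J profile were TRBV13-1, TRBV5 and TRBV31, whose mean TRBJ shares over 12 segments and 4 libraries lay at total variation distances of 7.93%, 8.41% and 8.80% among 14 segments compared.

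**Figure D2:**
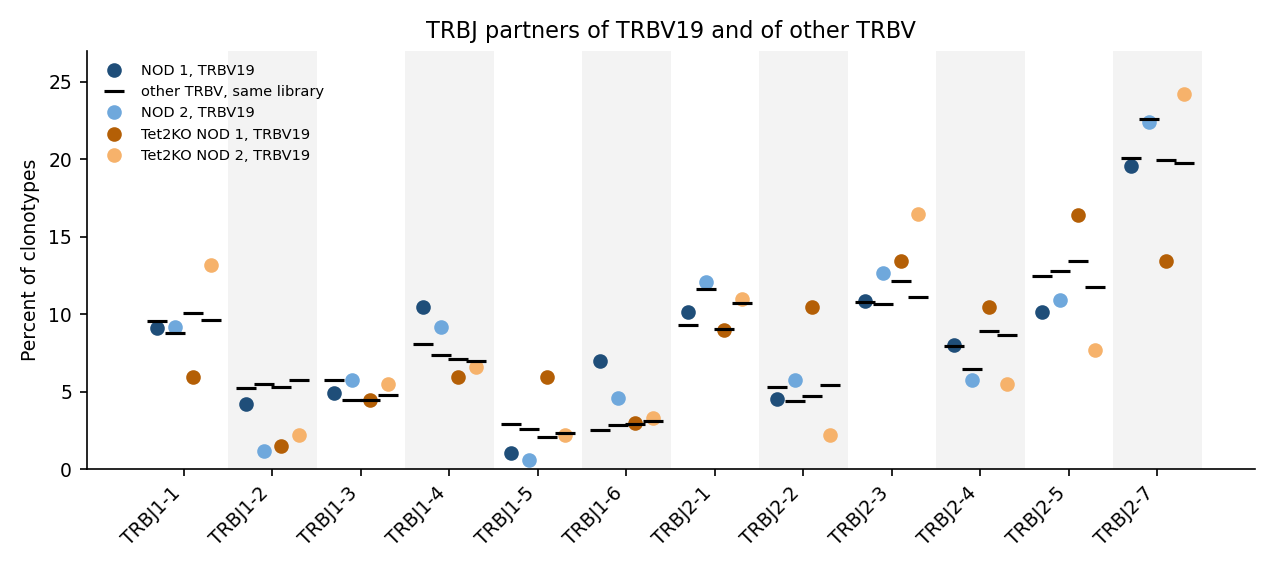
Percent of clonotypes joined to each TRBJ segment; coloured points are TRBV19 in each library and black dashes are all other TRBV in the same library. TRBJ1-2 lies below the dash in all 4 libraries, and TRBJ1-6 reaches 6.99% in NOD 1 against 2.54% for other TRBV.

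The alpha chains of TRBV19 receptors were drawn from across the TRA locus. TRAV5-4 was the commonest TRAV partner, with 9.44%, 6.32%, 11.9% and 13.2% of clonotypes, a mean of 10.2% ± 3.03 (SD, n = 4) beside 6.54% ± 0.727 for other TRBV segments (log2 fold change 0.53, standard error 0.21, edgeR, adjusted p = 0.212). TRAV6N-7 followed with a mean of 5.97%, TRAV13-1 with 4.15%, TRAV9-1 with 4.01%, TRAV4-3 with 3.91% and TRAV10D with 3.64%. Among TRAJ segments TRAJ53 led, with 4.54%, 4.02%, 7.46% and 9.89%, a mean of 6.48% ± 2.73 beside 2.83% ± 0.206 for other TRBV segments (log2 fold change 1.02, standard error 0.37, adjusted p = 0.171). It was above in all 4 libraries. TRAJ49 averaged 6.17%, TRAJ18 6.07%, TRAJ45 4.73%, TRAJ31 4.60% and TRAJ22 4.47%.

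Only TRAV16N and TRAV2 passed the partner test, both narrowly. TRAV16N joined 3, 5, 3 and 4 TRBV19 clonotypes and was lower, with a log2 fold change of -1.24 (standard error 0.36, edgeR, adjusted p = 0.0488). Its shares of 1.05%, 2.87%, 4.48% and 4.40% stood beside 5.53%, 6.19%, 5.17% and 6.65% for other TRBV segments. The call was lost when NOD 1, NOD 2 or Tet2KO NOD 2 was left out, and without NOD 1 the log2 fold change was -0.75. TRAV2 joined 4, 6, 1 and 2 TRBV19 clonotypes and was higher, with a log2 fold change of 2.09 (standard error 0.62, adjusted p = 0.0488), and its call was lost when any 1 library was left out. No partner segment passed the test of a genotype difference in TRBV19 pairing (edgeR interaction term, 0% of 114, 4 with unadjusted p under 0.05).

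Receptors typical of innate-like T cells were not seen among TRBV19 clonotypes. The TRAV11 family with TRAJ18, the alpha chain of invariant NKT cells, occurred in 0 of 286, 0 of 174, 0 of 67 and 0 of 91 clonotypes, which allows shares of up to 1.05%, 1.72%, 4.48% and 3.30%. Other TRBV segments had it at a mean of 0.394%, under each of those limits, so the difference was not detectable at this depth. TRAV1 with TRAJ33, the alpha chain of MAIT cells, was likewise at 0 in all 4 libraries, beside 0.0959%. TRAV16 family with TRAJ42 occurred in 1 of 618 clonotypes, a mean of 0.373% beside 0.838%. The TRAV5 family took 14.0% beside 11.4% (above in 4 of 4 libraries, exact sign-flip permutation test, p = 0.13, the smallest that 4 libraries allow), TRAJ58 to TRAJ40, the segments nearest the TRAV cluster, took 40.5% beside 41.9% (p = 0.375), and TRAJ20 to TRAJ2, the far end, took 22.3% beside 18.6% (above in 4 of 4, p = 0.13). These 3 p-values are unadjusted, among 9 lists tested.

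The germline end of TRBV19 encodes CASSI, and its isoleucine was the commonest residue at position 5 of the CDR3, counted from the first cysteine. It was present in 120 of 286, 73 of 174, 29 of 67 and 45 of 91 clonotypes, 43.2% of all 618, and 87.5% of clonotypes began with CASS. All 16 germline bases were matched in 91 clonotypes (14.7%), 14 bases in 163 (26.4%) and 12 in 115 (18.6%). An added base that equals the germline counts as matched, so these are upper limits on the bases kept. Proline (11.5%), arginine (9.22%) and methionine (8.90%) were the next residues at this position.

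In each of the 4 libraries the CDR3 lengths of TRBV19 had a smaller SD, and the loop tip a higher mean hydropathy, than in other TRBV segments, though 4 libraries cannot take these tests past 0.05. Loops of 13 to 15 residues made up 75.2%, 81.6%, 79.1% and 82.4% of TRBV19 clonotypes, beside 70.6%, 70.4%, 69.2% and 70.6% elsewhere. The mean length was 14.1 residues beside 14.0, and the SD of length was lower by 0.229 residues on average (lower in 4 of 4 libraries, exact sign-flip permutation test, p = 0.13, the smallest possible). A lower SD in 4 of 4 libraries was found for 46.7% of the 15 TRBV segments compared. The mean Kyte-Doolittle hydropathy of residues 6 and 7, positions at the peptide-facing tip where a higher value is more hydrophobic, was -0.906, -0.910, -1.06 and -1.02 by library. It was above that of other TRBV segments by 0.272, 0.280, 0.191 and 0.188 (mean 0.233 ± 0.0502, SD, n = 4, exact p = 0.13), and TRBV19 ranked 4 of 15. A value above in 4 of 4 libraries was found for 26.7% of these segments. The germline V part of the CDR3 had 14 bases in TRBV31, 16 in TRBV19 and 17 in TRBV5. It reached residue 6 in some segments and not in others, and its part in the hydropathy difference was not tested.

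Both Tet2KO NOD pools had a lower hydropathy than both NOD pools, with means of -1.04 ± 0.0304 and -0.908 ± 0.00233 (SD, n = 2, exact p = 0.333, the smallest possible). Genotypes did not overlap for 40% of the 15 TRBV segments. Counted once per cell the TRBV19 pools overlapped (difference -0.0825, exact p = 0.667), and with cells of over 1 TRB kept the difference was -0.0791 in place of -0.132. The number of CDR3 bases matched to neither V nor J germline also did not overlap, at 10.5 and 10.9 in the NOD pools and 10.2 and 9.98 in the Tet2KO NOD pools, with means of 10.7 ± 0.243 and 10.1 ± 0.163 (exact p = 0.333), as for 50% of the 14 segments with germline matches. Counted once per cell the sign of that difference turned, to 0.221 bases higher in Tet2KO NOD. TRBV19 contigs were read with fewer UMIs than other TRB, with medians of 9, 10, 7 and 9 per cell beside 11, 14, 10 and 12 (lower in 4 of 4, as for 33.3% of the 15 segments). Bases removed from the TRBJ end were counted as germline bases left unmatched. They averaged 2.77, 2.84, 2.21 and 2.37 beside 2.88, 2.99, 2.79 and 2.81 (lower in 4 of 4, as for 14.3% of 14 segments with germline matches, exact p = 0.13). No 3-residue string of the CDR3 beyond its first and last 5 residues passed the test against other TRBV segments (edgeR, 0% of 170, 12 with unadjusted p under 0.05, none by DESeq2), and the nearest to passing was TGS, with 3, 4, 1 and 5 TRBV19 clonotypes and a log2 fold change of 2.08 (standard error 0.61, adjusted p = 0.123).

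**Figure D3:**
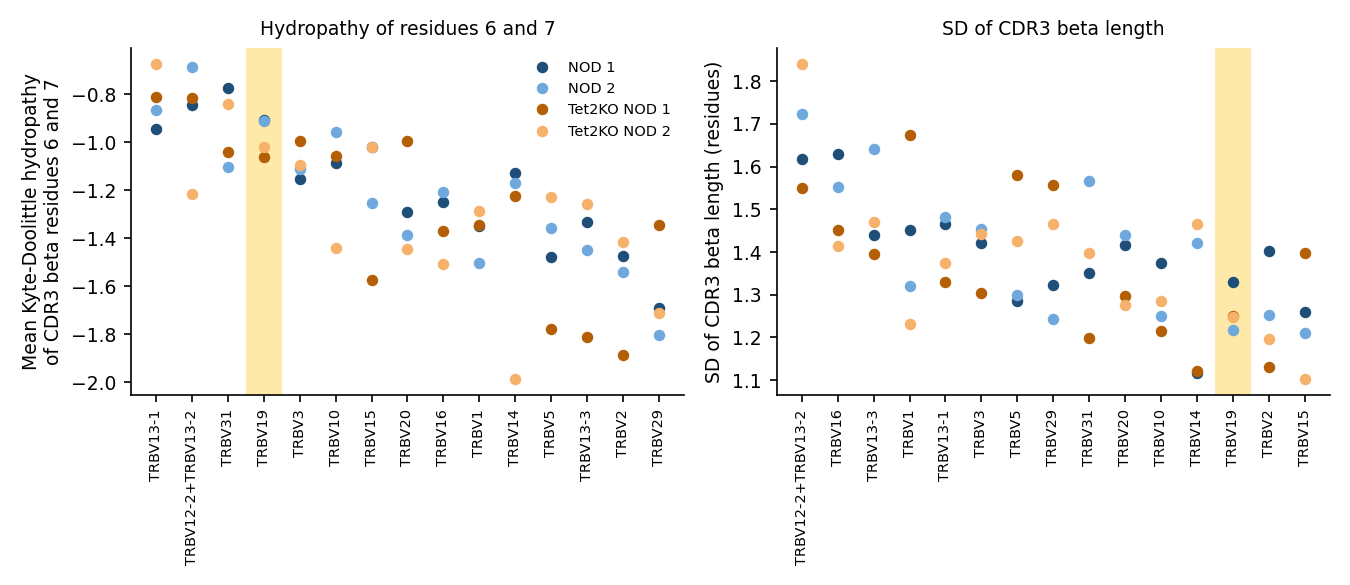
Mean hydropathy of CDR3 beta residues 6 and 7 (left) and SD of CDR3 beta length in residues (right) for the 15 TRBV segments with at least 20 clonotypes in each library, ordered by their mean; each point is a library and the yellow band marks TRBV19. TRBV19 stands at rank 4 from the highest for hydropathy and at rank 13 for the SD of length.

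One kind of TRBV19 receptor recurred in all 4 pools: TRBV19 with TRBJ2-7, paired with TRAV5-4 and TRAJ53. Its 25 clonotypes, of 85 cells, made it the most frequent of the 6631 combinations of these 4 segments in the series, ahead of one with 15 clonotypes, and it was chosen for description after its values were seen. TRAV5-4 with TRAJ53 occurred in 9 of 286, 3 of 174, 4 of 67 and 9 of 91 TRBV19 clonotypes, by library. Those shares of 3.15%, 1.72%, 5.97% and 9.89% stood beside 0.333%, 0.329%, 0.361% and 0.443% for other TRBV segments in the same library. In a fit across all TRAV-TRAJ pairs, added after the data were seen, it was the only pair that passed, 0.73% of 137 (log2 fold change 3.49, standard error 0.54, edgeR, adjusted p = 4.82e-08), and it passed without any 1 library. Counted once per cell in place of once per clonotype the log2 fold change was 3.79 with adjusted p = 0.623. Both Tet2KO NOD shares were above both NOD shares. Of the 137 pairs in the fit, however, only this pair, 1 of 1 (100%), was present in TRBV19 clonotypes of both Tet2KO NOD libraries. No other pair in the fit could show that order, so nothing is read from it. Pairs too few to enter the fit, such as TRAV2 with TRAJ22, were left out of that count. The interaction with genotype did not pass (log2 fold change 1.33, standard error 0.87, edgeR, adjusted p = 1.0), and 0% of the 137 pairs passed it (0 with unadjusted p under 0.05).

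TRAV5D-4, a near-identical copy of TRAV5-4, is known with TRAJ53 from CD4 T cells of NOD mice that recognise insulin. The files name only TRAV5-4, the copies cannot be told apart with certainty, and what these receptors recognise was not measured. All 25 clonotypes used TRBJ2-7, which 101 of the other 593 TRBV19 clonotypes used (17.0%), and among the 23 TRAV5-4 and TRAJ53 clonotypes of other TRBV segments 10 were of TRBV5 and 3 used TRBJ2-7. Of TRBV19 clonotypes with TRAJ53, 25 of 34 were of this kind, and of those with TRAV5-4, 25 of 58.

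**Figure D4:**
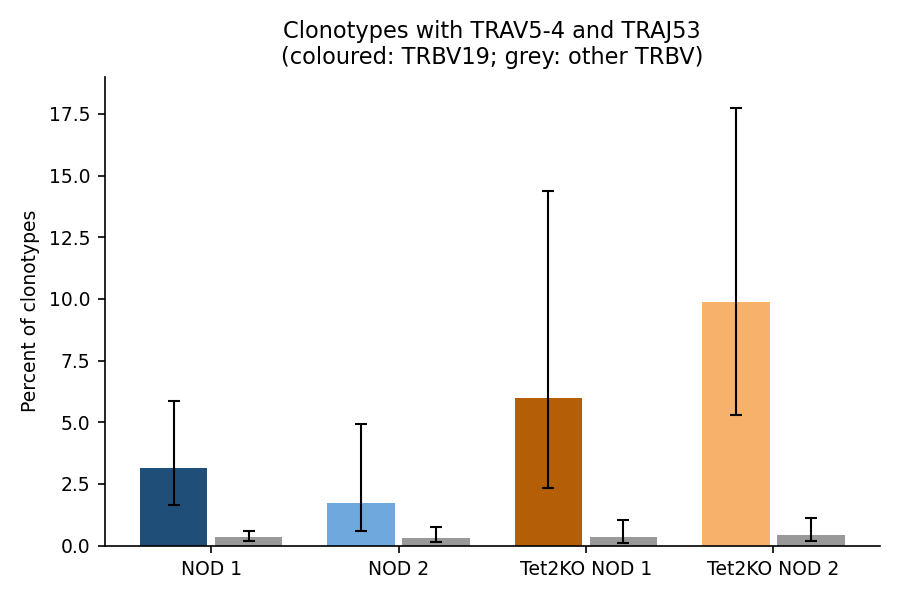
Percent of clonotypes that pair with TRAV5-4 and TRAJ53 in each library, for TRBV19 (coloured bars) and for all other TRBV (grey bars); lines are Wilson 95% intervals, which cover counting error only. TRBV19 bars run from 1.72% to 9.89% and grey bars from 0.329% to 0.443%.

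The CDR3 loops of the TRAV5-4 and TRAJ53 receptors were close to each other. Of the 25 beta loops, 14 had 14 residues and 11 had 15. Isoleucine stood at residue 5 in 19, glycine at residue 6 in 24 and glycine at residue 8 in 21, and 24 ended in SYEQYF, beside 50, 30, 45 and 24 of the 101 other TRBV19 clonotypes with TRBJ2-7. The 15 different amino acid sequences were encoded by 23 nucleotide sequences. All 25 alpha loops had 15 residues, 24 began with CAAS, and 21 ended in SGGSNYKLTF. Of the 23 clonotypes that paired TRAV5-4 and TRAJ53 with another TRBV, 13 had 15 residues, 18 began with CAAS and 19 ended in SGGSNYKLTF. Glutamate stood at residue 5 of the alpha loop in 19 of 25, and in 1 of those 23. Only 2 of the 85 cells held a second TRA.

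The following beta CDR3 sequences are shown because each of the protein loops was found in over 1 pool and was made by different joins. The first join was itself found in both NOD 1 and Tet2KO NOD 2. Capitals mark the bases matched to neither the TRBV19 nor the TRBJ2-7 germline, and the first 4 lines encode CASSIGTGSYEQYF and the last 2 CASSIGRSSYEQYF.
NOD 1 and Tet2KO NOD 2, 2 cells each: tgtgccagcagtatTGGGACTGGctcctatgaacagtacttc
Tet2KO NOD 1, 2 cells: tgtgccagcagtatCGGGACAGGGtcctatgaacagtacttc
Tet2KO NOD 2, 1 cell: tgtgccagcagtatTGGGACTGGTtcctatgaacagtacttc
Tet2KO NOD 2, another cell: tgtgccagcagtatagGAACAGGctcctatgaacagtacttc
NOD 1, 25 cells: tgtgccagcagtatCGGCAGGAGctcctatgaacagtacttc
Tet2KO NOD 1, 4 cells: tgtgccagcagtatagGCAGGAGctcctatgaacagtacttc

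In NOD 1 these receptors included clonotypes of 25, 15 and 13 cells among 63 cells, 11.9% of its TRBV19 cells. NOD 2 had 4 such cells, Tet2KO NOD 1 had 7 and Tet2KO NOD 2 had 11, and there the largest clonotype had 3 cells. As a share of all clonotypes of the library they took 0.250%, 0.177%, 0.445% and 0.906% (exact p = 0.333, the smallest possible). Both Tet2KO NOD shares were the higher, but the receptors were chosen after their values were seen, so nothing is read from this order. As a share of all paired cells these receptors took 1.13%, 0.162%, 0.436% and 0.790%, and the genotypes overlapped (exact p = 1.0).

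A second kind paired TRBV19 and TRBJ2-1 with TRAV2 and TRAJ22, in 1, 3, 1 and 1 clonotypes by library. It held 6 of the 13 TRBV19 clonotypes with TRAV2, the partner that passed the test above, and it was 1 of 2 TRBV19 combinations of the 4 segments, among 559, that occurred in all 4 libraries, beside 8 of 6072 combinations of other TRBV segments. Other TRBV segments paired with TRAV2 and TRAJ22 in 2 clonotypes. All 6 alpha loops read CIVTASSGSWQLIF. The beta loops were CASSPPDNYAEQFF in NOD 1, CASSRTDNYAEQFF, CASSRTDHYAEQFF and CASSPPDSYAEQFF in NOD 2, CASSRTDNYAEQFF in Tet2KO NOD 1 and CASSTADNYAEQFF in Tet2KO NOD 2, all of 14 residues. In NOD 2 the 14 cells of 1 such beta chain, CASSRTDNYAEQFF, also carried TRAV9-4 with TRAJ9 (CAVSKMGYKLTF), and 11 of them held both alpha chains. Which alpha chain was the functional one cannot be read from these tables.

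The largest TRBV19 clonotype of each NOD pool carried the same 12-residue beta loop, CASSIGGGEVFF with TRBJ1-1, from different joins. It is shown because the clones of the 2 pools share the loop and not its nucleotides.
NOD 1, 37 cells: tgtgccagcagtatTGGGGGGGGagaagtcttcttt
NOD 2, 36 cells: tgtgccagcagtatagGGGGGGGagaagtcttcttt
The NOD 2 clone took 14.2% of TRBV19 cells and carried TRAV12N-2 with TRAJ49 (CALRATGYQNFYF). In NOD 1, 35 of the 37 cells held TRAV13N-3 with TRAJ47 (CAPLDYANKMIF) and 29 held TRAV12N-2 with TRAJ49 (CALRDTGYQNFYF), 27 of them both, so the cells fell into clonotypes of 28 and 9 by the alpha chain with the most UMIs. The loop was at 0 of 67 and 0 of 91 clonotypes in the Tet2KO NOD libraries, which allows up to 4.48% and 3.30%, and beside 2 of 286 in NOD 1 that was not a detectable difference.

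Other large clones also held 2 alpha chains. In NOD 1 the TRB clone of most cells had 38, of which 34 held both TRAV9-1 with TRAJ56 (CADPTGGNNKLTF) and TRAV9-1 with TRAJ53, and it was counted as clonotypes of 20 and 18 cells. The other leading clonotype of NOD 1 was that of 25 cells with TRAV5-4 and TRAJ53. In Tet2KO NOD 1, 28 cells carried a 16-residue beta loop with TRBJ2-4 and TRAV7D-2 with TRAJ23 (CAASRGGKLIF), 26.2% of its TRBV19 cells, and the next clonotypes had 4 and 3 cells, both with TRBJ2-3 and TRAJ24. In Tet2KO NOD 2 the largest were 4, 4 and 3 cells, the first 2 with 1 beta chain of TRBJ2-1 and the last with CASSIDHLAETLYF. The beta loops over 14 residues are shown as nucleotides, with capitals as above.
NOD 1, 38 cells, TRBJ2-5: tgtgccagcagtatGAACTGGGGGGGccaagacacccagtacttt
Tet2KO NOD 1, 28 cells, TRBJ2-4: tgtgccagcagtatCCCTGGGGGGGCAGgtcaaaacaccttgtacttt
Tet2KO NOD 2, 8 cells, TRBJ2-1: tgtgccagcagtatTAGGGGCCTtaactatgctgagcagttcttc

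The genotypes overlapped in each clone size measure tested. Expanded cells, those whose clonotype had 2 or more cells, made up 55.3%, 40.6%, 45.8% and 29.7% of TRBV19 cells. Thinned to 107 cells, the number in the smallest library, the shares were 40.8%, 32.1%, 45.8% and 29.2%, and the group means of 36.4% ± 6.16 and 37.5% ± 11.7 (SD, n = 2) overlapped (exact p = 1.0). Unthinned, the sign of the difference turned, from 1.07 to -10.2 percentage points, and it was -7.22 without Tet2KO NOD 1 and -3.28 without NOD 2, both thinned. Cells per clonotype were 1.85, 1.46, 1.60 and 1.22 (exact p = 0.667). The largest clonotype took 5.28%, 14.2%, 26.2% and 3.60% of TRBV19 cells (exact p = 1.0), and without Tet2KO NOD 1 the sign of that difference turned, from 5.16 to -6.12 percentage points. Against other TRBV segments in the same library the expanded share was higher by 12.3 percentage points in NOD 1 and differed by -0.06, -9.38 and -10.3 in the others (mean -1.86 ± 10.5, SD, n = 4, exact sign-flip permutation test, p = 0.875). Clonotypes of 10 or more cells numbered 7 in NOD 1, 1 in NOD 2, 1 in Tet2KO NOD 1 and 0 in Tet2KO NOD 2. Among the 7 of NOD 1 were 2 that share 1 beta chain and were split by their alpha chains. By beta chain alone the largest clone took 7.17%, 14.2%, 26.2% and 7.21% of TRBV19 cells.

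**Figure D5:**
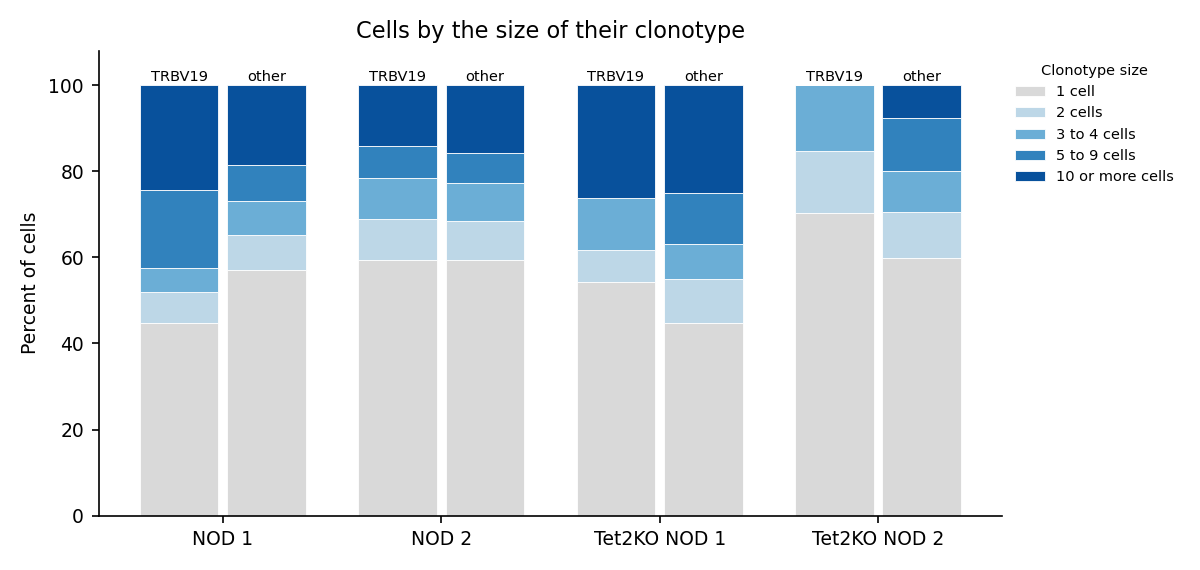
Percent of paired cells by the number of cells in their clonotype, for TRBV19 (left bar) and other TRBV (right bar) of each library. Clonotypes of 10 or more cells hold 24.3% of TRBV19 cells in NOD 1, 14.2% in NOD 2 and 26.2% in Tet2KO NOD 1, and none in Tet2KO NOD 2.

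Few TRBV19 loops were shared between pools, and most of those were made from different nucleotides. Of 576 different beta CDR3 amino acid sequences 15 (2.60%, Wilson 95% interval 1.58% to 4.25%) occurred in over 1 library, beside 105 of 6228 (1.69%, 1.40% to 2.04%) for other TRBV segments, and the intervals overlapped. In 11 of the 15 no nucleotide sequence was common to 2 libraries. The 10 with most cells were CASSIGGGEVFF with 73 cells, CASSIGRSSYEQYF with 29, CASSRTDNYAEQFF with 16, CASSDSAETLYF with 9, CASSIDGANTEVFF with 8 and 5 loops of 15 residues with 39, 19, 15, 10 and 10 cells, which used TRBJ2-5, TRBJ2-7, TRBJ2-7, TRBJ2-3 and TRBJ2-1. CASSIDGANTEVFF was found in NOD 1, NOD 2 and Tet2KO NOD 2, each time from another nucleotide sequence and each time with TRAV5N-4 and TRAJ13. The loop made by the most nucleotide sequences was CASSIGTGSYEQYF with 4, followed by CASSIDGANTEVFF and 3 loops of 15 residues, 2 with TRBJ2-7 and 1 with TRBJ2-3, with 3 each.

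Only 3 of the 615 different TRBV19 clonotypes matched in both chains between libraries, each time a NOD and a Tet2KO NOD library, a share close to the 31 of 6528 of other TRBV segments. They were the 38-cell NOD 1 clone as read with TRAV9-1 and TRAJ53 (18 cells, and 1 cell in Tet2KO NOD 1), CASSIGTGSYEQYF with TRAV5-4 and TRAJ53 (2 cells each in NOD 1 and Tet2KO NOD 2), and a 15-residue loop of TRBJ2-1 with TRAV7-1 and TRAJ26 (1 cell each in NOD 2 and Tet2KO NOD 2). No cell barcode was common to the 2 libraries for any of them, and whether the matches were separate rearrangements was not tested.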

How the data were processed

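The authors deposited, per the file headers, counts of reads and UMIs, whole numbers, for each assembled contig, with its segments, CDR3 and flags. Contig length, another deposited column, was not used. Cell Ranger 7.0.1 and the build GRCm38 (mm10) are named in the submitters' processing notes; its V(D)J segment reference: not given in the sources used here. Also, the labels' protocol describes nuclei and chromatin libraries, not receptor libraries. Cells with over 1 TRA were assigned the TRA with most UMIs, so a clone with 2 alpha chains can split into 2 clonotypes. Such cells were 121 of 530 paired TRBV19 cells in NOD 1 and 37 of 254 in NOD 2. They were 6 of 107 in Tet2KO NOD 1 and 11 of 111 in Tet2KO NOD 2. Partner shares and clonotypes hold only the assigned TRA.

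Segments, pairs and 3-residue strings were counted once per clonotype and tested with edgeR 4.0.16 (quasi-likelihood, R 4.3.3), with the number of clonotypes as library size, minimum counts of 10 (usage), 5 (pairs, partners, strings) or 3 (TRAV-TRAJ pairs) in at least 2 columns, and Benjamini-Hochberg adjustment over all rows kept. The common dispersion reached its lower limit in some fits, among them the main fits of TRBV-TRBJ pairs and of strings. In the main fits of usage and partners it was 0.0023 and 0.0031, so it added little to counting error there. In the TRAV-TRAJ fit it was 0.063. Each standard error is an approximation, the log2 fold change over the root of F. DESeq2 1.42.0 was an alternative. Library values were compared by exact permutation over 6 assignments, and TRBV19 with other TRBV by 16 sign patterns, both two-sided, so no such test could pass 0.05 (smallest p 0.333 and 0.13). Scripts were tested on simulated data. Germline matches came from GRCm38, without TRBV10 and TRBV26. A count of 0 was taken to allow 3 counts; Wilson 95% intervals cover counting error only.

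Named segments were TRBV19, every TRBJ, the 6 TRAV and 6 TRAJ of highest mean share, segments and strings passing a test, the 3 largest clonotypes of each library, loops and clonotypes in over 1 library (up to 10 loops), the 5 loops of most nucleotide sequences and the 3 TRBV of nearest J profile. Members and lists were chosen with earlier results of these data known. The TRAV-TRAJ fit, SD of length and comparison over 15 TRBV segments were added after the data were seen. Whether same-numbered sets are paired could not be checked with 2 pairs.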

Additional observations from a re-analysis of the deposited data

Results flagged for a closer look

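Contigs named TRBV19 that did not meet the rule, because their barcode was not a called cell or a flag was missing, made up 37.3% of 193 in Tet2KO NOD 1 and 37.6% of 213 in Tet2KO NOD 2, above the 29.5% of 895 in NOD 1 and 25.0% of 392 in NOD 2. Of these, contigs outside called cells were 29.0%, 33.3%, 24.0% and 21.7% of all TRBV19 contigs, in the same order. The same shares over all TRB contigs were not computed, so whether the difference is particular to TRBV19 was not tested. The difference itself and its part in the lower cell share of TRBV19 in Tet2KO NOD were not tested either.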

How the results depend on the processing

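Of 210 alternative values 164 were the same by the rule for their kind, 17 lost a call, 14 were counts that moved and 15 reversed in sign. To be the same, the log2 fold change of a single feature had to keep its direction and side of the threshold. A count had to stay equal or close. An exact-test measure, whose p could not pass the threshold, had only to keep its sign. All 12 alternatives for TRBV19-TRBJ pairs were counts of 0 that stayed at 0. The log2 fold change of TRBV19 by clonotypes ranged from -0.299 to 0.0695 with 1 library left out, and the count of TRBV19-TRBJ pairs passing was 0 under every alternative run. The count of partner segments passing, 2 in the main fit, fell to 0 when each cell was counted once, with no filter, with TMM and with DESeq2. It fell to 1 with cells of over 1 TRB kept, and to between 0 and 1 without 1 library. The 1 that passed without NOD 1 was neither TRAV16N nor TRAV2. By TRB alone only the 12 TRBJ segments could be tested and none passed, as in the main fit. That setting cannot decide whether the calls of TRAV16N and TRAV2 hold. Of 3-residue strings 1 passed (TGS) with clonotypes by TRB alone and 4 (DAG, IGT, ISG, TGS) when 4 residues in place of 5 were left out at each end, which admits the germline-encoded isoleucine. Of TRAV-TRAJ pairs 0 passed when each cell was counted once and 3 by DESeq2, and 1 without any 1 library; DESeq2 used the number of clonotypes as its size factor because only 1 pair was present in every column. The thinned expanded share, Tet2KO NOD minus NOD, was 1.07 percentage points, -0.877 by the deposited clonotype numbers and -10.2 unthinned, and -7.22 to 9.37 with 1 library left out. Leaving out 1 library gave -6.12 to 16.4 for the share of the largest clonotype, -0.0837 to 0.103 residues for CDR3 length, and -6.59 to 0.964 for the expanded share against other TRBV. Counted once per cell, the CDR3 length difference was 0.534 residues with genotypes not overlapping (exact p = 0.333), beside 0.00939 once per clonotype. Once per clonotype the genotypes did not overlap in CDR3 length for 7 of 15 TRBV segments, TRBV19 not among them. The share of segments once per cell was not computed. Non-germline bases turned from -0.603 to 0.221 when each cell was counted once. In a fit with sets as a replicate block, TRBV19 usage (log2 fold change -0.13, adjusted p = 0.997) and its TRBJ pairs (0 of 10) did not pass, and within set 2 the thinned share was -2.87, the largest clonotype -10.6 and CDR3 length -0.114. The causes were not tested. NOD 1 held the most cells, and the 67 to 91 TRBV19 clonotypes of the Tet2KO NOD libraries limit the precision of their shares.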
